A study of Mus musculus with 24 samples.

Results

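The genes described here are 10 that report on the unfolded protein response and the integrated stress response: Hspa5, Hsp90b1, Calr, Pdia4, Xbp1, Atf4, Ddit3, Trib3, Chac1 and Herpud1. They were taken by symbol from the 2 deposited expression tables, and 10 of 10 had values above the floor (the log2 value of a gene with no reads) in both, among 14164 such genes in endothelial cells and 13950 in microglia. RNA was sequenced from cells sorted out of mouse brain slices that had been given PKH67-dyed exosomes (small vesicles released by cells, 5 µg per slice) or phosphate-buffered saline (PBS) over 2 days. Endothelial cells, which line blood vessels, were sorted for CD31 in the absence of CD45, and microglia, the resident macrophages of the brain, for CD45 at low levels of CD11b and CD49d. The PBS group received no exosomes, the WT group exosomes labelled wild type, and the KO1 and KO2 groups exosomes labelled as knock-outs. The series title concerns the exosomal protein CEMIP in brain metastasis. The labels name neither the gene knocked out nor the donor cells, and they give no strain or age for the mice. All groups, PBS included, are described as exosome-positive sorted cells, so the gate used for PBS cells is not clear. Libraries carry a letter (A, B or C) whose meaning the labels do not give. Nothing says that libraries of a group came from separate animals, so p-values measure the spread between these libraries, which may be technical.

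Of 24 labelled samples, 21 were used. For endothelial cells these were 10 libraries, with all 3 letters for PBS and KO1, A and B for WT, and B and C for KO2. For microglia they were 11, with A and B for PBS and all 3 letters for the exosome groups. The other 3 were not analysed here. The sort marker Pecam1, which encodes CD31, lay between 42620 and 56200 normalised counts in endothelial libraries and at 284 or less in microglia. Ptprc, which encodes CD45, lay between 1529 and 3974 in microglia and was listed at 0 in endothelial libraries other than KO1 B (119) and KO2 C (290). Summed markers of endothelium ran from 230986 to 288498 in endothelial libraries and from 260 to 857 in microglia. Those of microglia ran from 85 to 2284 in endothelial libraries and from 24103 to 33858 in microglia. In endothelial libraries 11 to 13 of 13 endothelial markers stood at 100 or more. In microglia libraries 4 to 8 of 12 microglia markers did, and 1 to 4 were at 0, so part of the list carries these sums. Markers of choroid plexus and ependyma differed between endothelial libraries: the sum of 12 was 965 to 7390 with PBS, 201747 to 359990 in the A and B libraries given exosomes, 6727 in KO1 C and 22988 in KO2 C. Microglia libraries held sums of 25 to 12729. Levels below are normalised counts recovered from the deposited log2 values. They sum to 25.7 M or more per endothelial library and to 26.9 to 29.4 M per microglia library, which are scaled totals and not read depths.

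When unfolded proteins build up in the endoplasmic reticulum (ER), the membrane sensors IRE1, PERK and ATF6 start the unfolded protein response. IRE1 splices Xbp1 messenger RNA, ATF6 is cut to release a transcription factor, and PERK phosphorylates the translation factor eIF2alpha, which lowers protein synthesis but favours translation of ATF4. The kinases GCN2, PKR and HRI act on eIF2alpha in response to other stresses, and the shared output through ATF4 is called the integrated stress response. In endothelial cells the response supports the secretion of matrix and adhesion proteins, and in macrophages it meets inflammatory signalling. Splicing of Xbp1 and translation of Atf4 cannot be read from the gene-level values used here.

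The promoters below are shown because they hold the DNA elements by which this response is classically recognised. They are 300 bases of RefSeq sequence on GRCm38.p6, from 250 before the gene start to 50 after it on the gene's strand, and all 10 genes matched an entry. Capitals mark matches, on either strand, to the ER stress response element ERSE (CCAAT and CCACG with 9 free bases between), to its short form ERSE-II (ATTGG and CCACG with 1 free base between) or to the element bound by ATF4 with a C/EBP partner, CARE (TGATGNAAN). No position is shared between matches to different elements in these sequences.
Hspa5, chr2:34771840-34772139, plus strand, ERSE: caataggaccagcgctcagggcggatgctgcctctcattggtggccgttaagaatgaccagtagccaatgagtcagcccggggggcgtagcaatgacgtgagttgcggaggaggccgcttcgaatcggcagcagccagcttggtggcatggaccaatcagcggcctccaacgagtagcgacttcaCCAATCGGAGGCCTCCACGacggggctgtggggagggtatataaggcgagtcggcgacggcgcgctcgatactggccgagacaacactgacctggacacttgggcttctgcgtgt
Herpud1, chr8:94386179-94386478, plus strand, CARE then ERSE-II: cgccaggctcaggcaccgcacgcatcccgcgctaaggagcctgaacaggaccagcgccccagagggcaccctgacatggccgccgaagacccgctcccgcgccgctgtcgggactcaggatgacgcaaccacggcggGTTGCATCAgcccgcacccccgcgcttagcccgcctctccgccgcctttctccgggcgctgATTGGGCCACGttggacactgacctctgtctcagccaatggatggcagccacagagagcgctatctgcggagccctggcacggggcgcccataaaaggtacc
Chac1, chr2:119350992-119351291, plus strand, CARE: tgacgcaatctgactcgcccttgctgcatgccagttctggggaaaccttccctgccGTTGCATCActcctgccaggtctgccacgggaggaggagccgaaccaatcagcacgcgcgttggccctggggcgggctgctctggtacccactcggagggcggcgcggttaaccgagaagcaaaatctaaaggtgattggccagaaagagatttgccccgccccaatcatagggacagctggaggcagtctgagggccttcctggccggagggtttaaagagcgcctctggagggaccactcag

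ERSE was present in the promoters of 3 of the chaperone genes: Hspa5 (1 match), Calr (CGTGGTCGACCCTCATTGG, on the opposite strand) and Hsp90b1 (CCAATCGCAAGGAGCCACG, and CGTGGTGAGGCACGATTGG on the opposite strand). Of 32851 promoters of the same length, 39 (0.119%) held ERSE and 12 (0.0365%) held ERSE-II, which among the 10 genes was found in Herpud1. CARE was found in Chac1 and Herpud1, both with the letters GTTGCATCA on the opposite strand, and in Trib3 (TTTACATCA). It is short and stood in 3.95% of all promoters. The XBP1 element UPRE (TGACGTGG, 0.676% of promoters) had no match among the 10. Pdia4, Xbp1, Atf4 and Ddit3 matched none of the 4 elements in this window. A match describes the letters and is not evidence of binding.

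In endothelial cells, none of the 10 genes passed the test between any groups. Ddit3, which encodes the death-linked transcription factor CHOP, showed the lowest values in both WT libraries, and Trib3 and Chac1 spread widely within PBS and within WT. Differences were tested with limma on the deposited log2 values over all genes with a mean of at least 50 normalised counts (10351 genes, the 10 among them), with Benjamini-Hochberg adjustment at 0.05. For WT minus PBS, 0 of the 10 passed, as against 1 of 10351 genes (0.00966%), and 2 of the 10 had an unadjusted p under 0.05, as against 9.77% of genes. The counts and the deposited scale differ in size: the endothelial table has a high floor, so a difference on its log2 scale is smaller than the log2 ratio of the counts. Both are given. In sorted bulk samples, fewer cells of a type and less RNA per cell cannot be told apart.

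**Figure D1:**
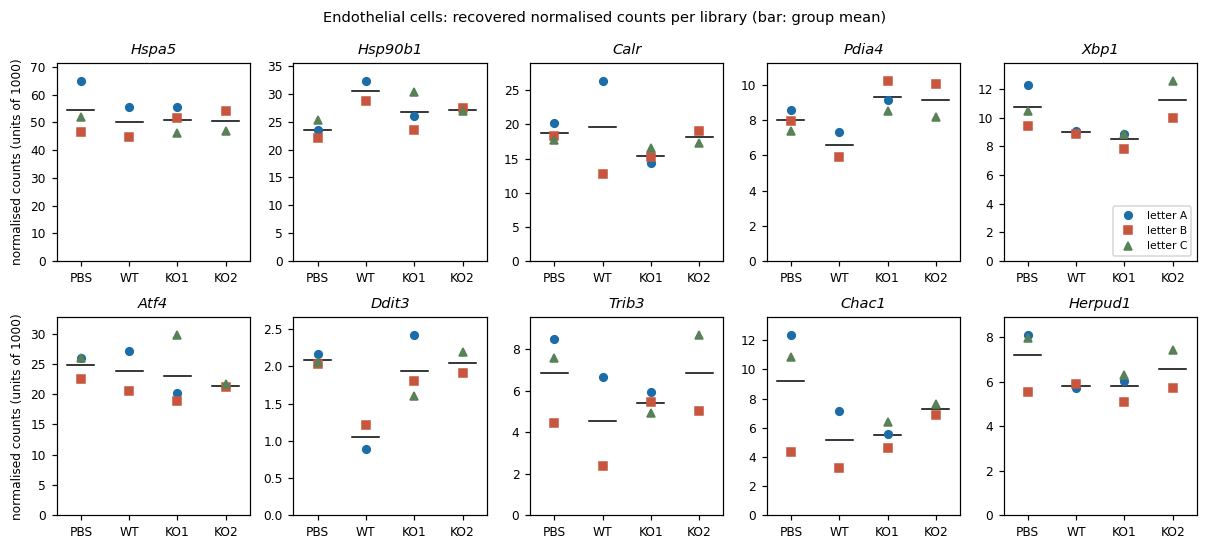
Recovered normalised counts (in units of 1000, linear axis from 0) of the 10 genes in the 10 endothelial libraries, by group, with the group mean as a bar and the letter as the marker. Both WT libraries of Ddit3 lie below the other 8, while Trib3 and Chac1 spread widely within PBS and WT.

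Hspa5 encodes BiP, the main ER chaperone, which also holds the stress sensors inactive (gene 14828; chromosome 2, 34772090 to 34776529, GRCm38.p6). It stood at 64926, 46633 and 51913 in PBS (A, B, C), 55543 and 44843 in WT (A, B), 55597, 51427 and 46020 in KO1 (A, B, C), and 54216 and 46995 in KO2 (B, C). All 4 groups overlapped, and the highest library was 1.45 times the lowest. The Hspa5 span overlaps that of Rabepk, which stood at 421 or less.

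Hsp90b1 encodes GRP94, the ER form of HSP90 (gene 22027; chromosome 10, 86690841 to 86705444). It stood at 23452, 22048 and 25296 with PBS (A, B, C), 32314 and 28774 with WT (A, B), 26048, 23545 and 30414 with KO1 (A, B, C), and 27461 and 26858 with KO2 (B, C). Both WT libraries lay above all 3 PBS libraries, with means of 30544 ± 2503 (SD, n = 2) and 23599 ± 1629 (SD, n = 3). The deposited log2 difference was 0.24 (SE 0.106, limma adjusted p = 0.5), and 0.37 on log2 of counts plus 50. Among all tested genes 15.7% had WT wholly above PBS, and among the 10 it was 1.

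Pdia4 encodes ERp72, which forms disulfide bonds in ER proteins (gene 12304; chromosome 6, 47796141 to 47813512). It stood at 8603, 7982 and 7372 with PBS, 7309 and 5890 with WT, 9176, 10226 and 8512 with KO1, and 10085 and 8169 with KO2, in letter order. WT lay below PBS by a narrow margin and below all 5 knock-out libraries. The deposited log2 difference was -0.11 for WT minus PBS (SE 0.087, limma adjusted p = 0.714), -0.05 without WT B and -0.17 without WT A. Pdia4 and Ddit3 were the 2 of 10 genes with WT below all other libraries, a pattern of 3.48% of genes. Calr encodes calreticulin, a calcium-binding lectin chaperone (gene 12317; chromosome 8, 84842088 to 84846931). Its WT libraries held both the highest and the lowest level of the table, 26351 in A and 12775 in B, and the other 8 lay between 14309 and 20168.

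Herpud1 encodes a membrane protein that assembles the ER-associated degradation machinery (gene 64209; chromosome 8, 94386429 to 94395371). It stood at 8105, 5524 and 7970 with PBS, 5727 and 5901 with WT, 6050, 5104 and 6305 with KO1, and 5721 and 7446 with KO2. PBS B lay below both WT libraries while PBS A and C lay above them, and the deposited log2 difference was -0.11 (SE 0.0934, limma adjusted p = 0.732), or -0.07 without PBS A and -0.18 without PBS B.

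Ddit3, the gene of CHOP (gene 13198; chromosome 10, 127290793 to 127296291), stood at 2169, 2030 and 2061 with PBS (A, B, C), 888 and 1206 with WT (A, B), 2420, 1804 and 1607 with KO1 (A, B, C), and 1909 and 2192 with KO2 (B, C). Both WT libraries were below the other 8, which began at 1607. The PBS mean was 2087 ± 73 (SD, n = 3) and the WT mean 1047 ± 225 (SD, n = 2). The deposited log2 difference was -0.19 (SE 0.0786, 95% interval -0.36 to -0.02, unadjusted p = 0.033, limma adjusted p = 0.471). On log2 of counts plus 50 it was -0.98 (limma adjusted p = 0.432). Within letters, WT over PBS was 0.409 in A and 0.594 in B. This difference did not pass across 10351 genes.

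Choroid plexus markers stood at 233541 and 205190 in WT A and B (8 and 9 of 12 at 100 or more, 2 at 0 in each), against 965 to 7390 with PBS, and their part in the Ddit3 difference was not tested. KO1 A, KO1 B and KO2 B held sums of 201747, 359990 and 312614, and their Ddit3 levels of 2420, 1804 and 1909 lay above both WT libraries. Pericyte and smooth muscle markers were high in WT B (8050, 8 of 10 at 100 or more) and low in WT A (1510), against 2154 to 4501 with PBS. Astrocyte marker sums were lower in WT A and B (16671 and 9333) than with PBS (19173 to 41756), with 13715 to 24396 in the knock-out libraries. Those of fibroblasts and meninges were higher (1859 and 3847, against 593 to 1501), with 166 to 7727 in the knock-out libraries. Microglia sums were also higher (1175 and 2242, against 782 to 1028), with 85 to 2284 in the knock-out libraries. These 3 sums rest on few genes. Of 12 astrocyte markers, 2 and 5 stood at 100 or more in WT A and B, against 5, 2 and 3 with PBS. For fibroblasts and meninges it was 2 and 3 of 9, against 2, 3 and 2. For microglia it was 1 and 3 of 12, against 1 in each PBS library. The part of each list in the Ddit3 difference was not tested. Fewer genes lay above the floor in WT A and B (9235 and 10607) than in the PBS libraries (11305 to 11952), and the knock-out libraries held 9516 to 11531. The Ddit3 span overlaps those of Mars1, which stood at 6773 and 4677 with WT and 5287 to 9929 elsewhere, and Mbd6 (178 or less). The sources used here do not say whether reads were assigned by strand.

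Xbp1, which encodes the transcription factor activated by IRE1 (gene 22433; chromosome 11, 5520641 to 5525993), stood at 12308, 9422 and 10459 with PBS, 9069 and 8882 with WT, 8846, 7829 and 8838 with KO1, and 9978 and 12556 with KO2. WT lay below PBS without overlap, by -0.11 on the deposited log2 scale (SE 0.0901, limma adjusted p = 0.715) and by -0.06 without PBS A. Pdia4, Xbp1 and Ddit3 were the 3 of 10 genes with WT wholly below PBS, a pattern of 18.7% of all tested genes. Atf4, the gene of the central integrated stress response factor (gene 11911; chromosome 15, 80255184 to 80257545), ranged from 18875 in KO1 B to 29777 in KO1 C, and no contrast tested had its groups apart.

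Trib3 encodes a pseudokinase induced by ATF4 and CHOP that restrains them (gene 228775; chromosome 2, 152337425 to 152344060). It stood at 8482, 4442 and 7588 with PBS, 6678 and 2367 with WT, 5920, 5455 and 4899 with KO1, and 5029 and 8676 with KO2. Chac1 encodes an enzyme that degrades glutathione and is an ATF4 target (gene 69065; chromosome 2, 119351242 to 119354326). It stood at 12346, 4357 and 10827 with PBS, 7129 and 3214 with WT, 5562, 4623 and 6373 with KO1, and 6876 and 7635 with KO2. In PBS and WT the letter B library was the low one for both genes, and PBS and WT overlapped. WT minus PBS was -0.31 for Chac1 (SE 0.163, limma adjusted p = 0.557) and -0.23 for Trib3 (SE 0.145, limma adjusted p = 0.629) on the deposited scale. On log2 of counts plus 50 they were -0.80 and -0.72. Without WT B the deposited differences were -0.12 and -0.002.

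Knock-out exosomes were set against WT exosomes with the mean of KO1 and KO2, so the WT libraries enter this comparison and the one with PBS. With limma 0 of the 10 genes passed, as against 1 of 10351 genes (0.00966%), and Pdia4 and Ddit3 had an unadjusted p under 0.05, as did 8.84% of genes. These were also the 2 of 10 with all 5 knock-out libraries above both WT libraries, a pattern of 4.52% of genes, and none had the reverse (4.7% of genes). Pdia4 differed by 0.20 (SE 0.0802, 95% interval 0.02 to 0.37, limma adjusted p = 0.518), or 0.48 on log2 of counts plus 50, with KO1 over WT at 1.26 in letter A and 1.74 in letter B and KO2 over WT at 1.71 in letter B. Ddit3 differed by 0.18 (SE 0.0724, 95% interval 0.02 to 0.33, limma adjusted p = 0.528), or 0.90 on log2 of counts plus 50. Its KO1 over WT ratio was 2.72 in letter A and 1.5 in letter B, and KO2 over WT was 1.58 in letter B. Hsp90b1 differed by -0.12 (SE 0.0974, limma adjusted p = 0.755), and by -0.06 without WT A. No WT library of letter C was analysed here, so KO1 C and KO2 C have no WT partner.

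Knock-out exosomes against PBS gave 0 of the 10 past the limma test and 0 at an unadjusted p under 0.05 (5.4% of genes), and no gene had groups apart (2.22% of genes higher, 2.85% lower). The differences ran from -0.18 for Chac1 (SE 0.132, limma adjusted p = 0.961, and -0.07 without PBS A or -0.37 without PBS B) to 0.12 for Hsp90b1 (SE 0.0852, limma adjusted p = 0.963). Between KO1 and KO2, again 0 passed and 0 had an unadjusted p under 0.05 (6.13% of genes). Calr, Xbp1 and Chac1 had all 3 KO1 libraries below both KO2 libraries, a pattern of 8.75% of genes, and none had the reverse (7.78% of genes). The differences, KO1 minus KO2, ran from -0.18 for Xbp1 (SE 0.0901, limma adjusted p = 0.828, and -0.10 without KO2 C) to 0.05 for Atf4 (SE 0.132, limma adjusted p = 0.977). The F test over the 4 groups passed for 0 of the 10 and 0 of 10351 genes, with 844 genes (8.15%) at an unadjusted p under 0.05.

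**Figure D2:**
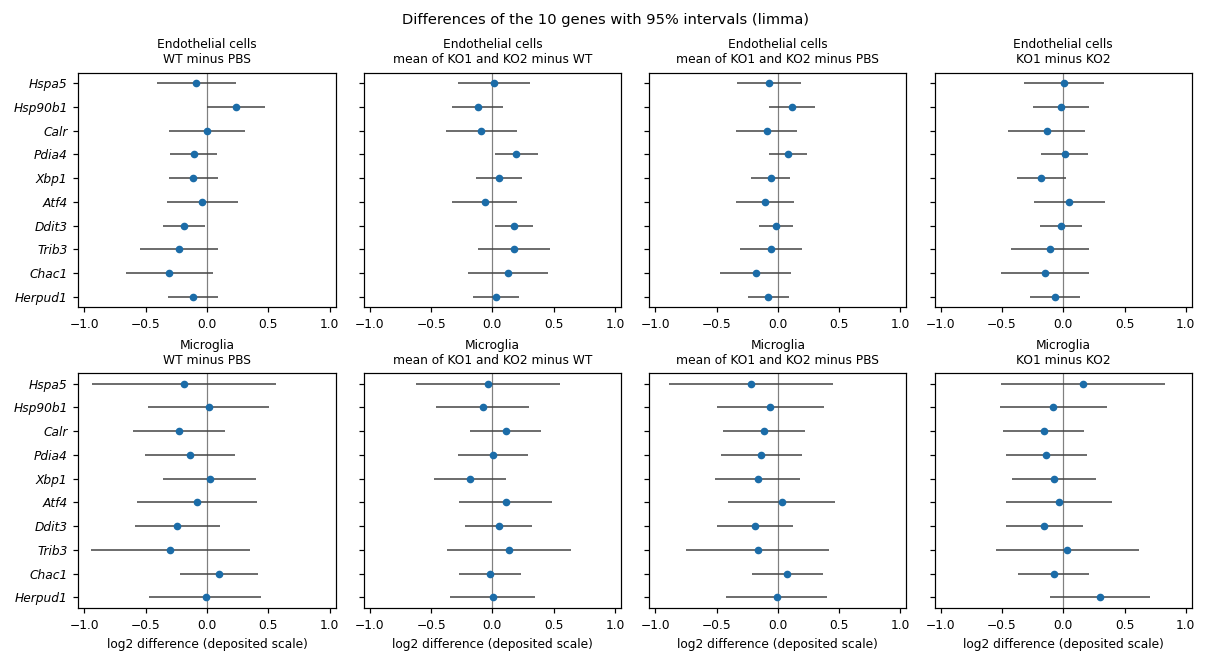
Log2 differences of the 10 genes on the deposited scale (points) with 95% limma intervals (lines), for 4 contrasts in endothelial cells (top) and microglia (bottom). Intervals that leave 0 belong to Hsp90b1 and Ddit3 for endothelial WT minus PBS and to Pdia4 and Ddit3 for knock-out minus WT, all unadjusted. The endothelial scale has the higher floor and shrinks differences, so sizes are not comparable between top and bottom.

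In microglia none of the 10 genes passed the limma test between any groups, and none had an unadjusted p under 0.05. Of 9736 genes tested, 0 passed in each of the 4 contrasts, with 510 at an unadjusted p under 0.05 for WT minus PBS (5.24%), 313 for knock-out minus WT (3.21%), 522 for knock-out minus PBS (5.36%) and 324 for KO1 minus KO2 (3.33%). The F test also passed for 0 of 9736, with 371 (3.81%) at an unadjusted p under 0.05. Hspa5 stood at 201048 and 324615 in PBS (A, B), 186719, 278896 and 233146 in WT (A, B, C), 190115, 267208 and 257936 in KO1, and 151323, 269808 and 244171 in KO2. Letter A was the lowest and letter B the highest library in all 4 groups. The PBS mean was 262831 ± 87375 (SD, n = 2) and the WT mean 232920 ± 46089 (SD, n = 3), a deposited log2 difference of -0.19 (SE 0.343, limma adjusted p = 0.988), and without PBS B it was 0.23. These levels lie in a range where the recovered scale has few anchors.

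**Figure D3:**
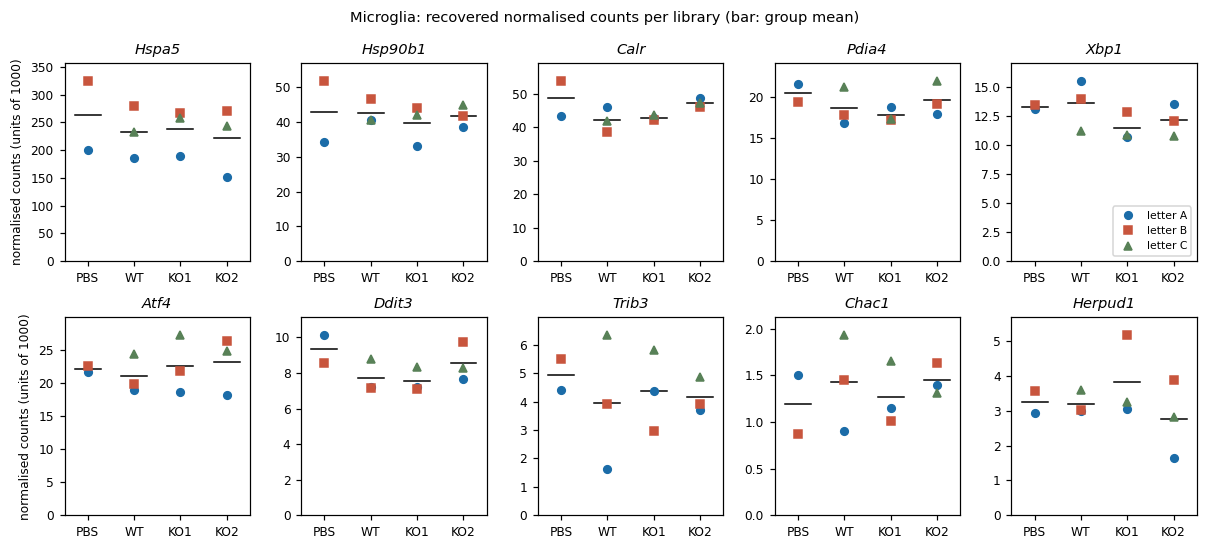
Recovered normalised counts (in units of 1000, linear axis from 0) of the 10 genes in the 11 microglia libraries, by group, with the group mean as a bar and the letter as the marker. Letter A is the lowest library of each group for Hspa5, Atf4 and Herpud1, and among the 4 contrasts tested Calr alone has groups apart, with KO1 below KO2.

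Ddit3 in microglia stood at 10131 and 8558 with PBS (A, B), 7213, 7145 and 8804 with WT, 7221, 7082 and 8350 with KO1, and 7669, 9754 and 8273 with KO2 (A, B, C). WT C and KO2 B reached above PBS B, so neither WT nor the knock-out libraries together lay apart from PBS. WT minus PBS was -0.24 (SE 0.16, limma adjusted p = 0.948) and knock-out minus PBS -0.19 (SE 0.143, limma adjusted p = 0.949). Without PBS A they were -0.13 and -0.08, and without PBS B -0.35 and -0.30. On log2 of counts plus 50, Ddit3 WT minus PBS was -0.275 in microglia, where the endothelial value was -0.976. The deposited scales of the cell types have different floors, so sizes on them cannot be compared. Trib3 ranged widely within WT, at 1628, 3937 and 6353 in A, B and C. It stood at 4416 and 5504 with PBS, at 2952 to 5829 with KO1 and at 3726 to 4883 with KO2. Its WT minus PBS difference of -0.30 (SE 0.299, limma adjusted p = 0.965) was the lowest of the 10 and became 0.03 without WT A. Chac1, at 873 and 1504 with PBS and 908 to 1933 with WT, had the highest (0.10, SE 0.148, limma adjusted p = 0.977), which became -0.04 without PBS B.

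The remaining microglia contrasts gave differences of the same order. Knock-out minus WT ran from -0.18 for Xbp1 (SE 0.136, limma adjusted p = 1, and -0.09 without WT A) to 0.14 for Trib3 (SE 0.231), and knock-out minus PBS from -0.22 for Hspa5 (SE 0.307, limma adjusted p = 0.976) to 0.08 for Chac1 (SE 0.132). Herpud1 had the highest KO1 minus KO2 difference (0.30, SE 0.186, limma adjusted p = 1, and 0.11 without KO2 A), with levels of 3042, 5171 and 3252 in KO1 and 1627, 3876 and 2823 in KO2 (A, B, C). Calr had the lowest (-0.16, SE 0.152) and was the only gene of the 10 with groups apart in any microglia contrast: its KO1 libraries (42192 to 43772) lay below its KO2 libraries (46069 to 48859), a pattern of 4.15% of genes. Pdia4 (16905 to 22000), Hsp90b1 (33062 to 51805), Xbp1 (10714 to 15550) and Atf4 (18227 to 27269) overlapped in all contrasts.

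The 2 cell types were normalised in separate tables, so their levels can be set side by side but not tested. For Hspa5 the microglia range of 151323 to 324615 lay above the endothelial range of 44843 to 64926. Ddit3 likewise lay at 7082 to 10131 in microglia and at 888 to 2420 in endothelial cells, and Calr (38745 to 53887, against 12775 to 26351), Hsp90b1 (33062 to 51805, against 22048 to 32314) and Pdia4 (16905 to 22000, against 5890 to 10226) had the same order. Chac1 had the opposite order, at 873 to 1933 in microglia and 3214 to 12346 in endothelial cells. For Atf4 (18875 to 29777 endothelial, 18227 to 27269 microglia), Xbp1 and Trib3 the ranges overlapped. Herpud1 overlapped at the edges, with microglia (1627 to 5171) mostly below endothelial cells (5104 to 8105).

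For some of the 10 genes the same letter was the lowest or highest library of every group that had it. The part of the letters in this spread was not tested. In microglia, letter A was the lowest library of every group for Hspa5, Atf4 and Herpud1, 3 of the 10 genes as against 2.71% of genes tested, and letter B was the highest for Hspa5 (2.85% of genes). Letter C was the highest for Trib3 in the 3 groups that had it (6.57% of genes). In endothelial cells, letter A was the highest library of every group that had it for Hspa5, Xbp1 and Trib3 (5.82% of genes). Letter B was the lowest in every group for Xbp1, Atf4 and Chac1 (2.68% of genes), and letter C the lowest for Pdia4 (6.75% of genes). The letter C patterns of Trib3 and Pdia4 each held 1 of the 10 genes, near the share of all genes. None of the 10 had letter A lowest (6.82% of genes), B highest (3.87%) or C highest (5.44%) throughout in endothelial cells, nor letter A highest (3.49%), B lowest (2.28%) or C lowest (6.75%) in microglia. Border-associated macrophage markers in microglia were high in letter B of WT, KO1 and KO2 (5199, 6165 and 5351, 2 or 3 of 7 markers at 100 or more in each library of the table) and lay between 701 and 3125 elsewhere. PBS B, the library with the highest Hspa5, held 1534. Oligodendrocyte marker sums were highest in letter B of every microglia group (6747 in PBS, 7088 in WT, 9178 in KO1 and 8677 in KO2). The A and C libraries held 3196 to 5299. Astrocyte marker sums were also highest in letter B of every group (2666, 1769, 1101 and 1672), with 565 to 1666 in the A and C libraries. The part of each of these in the Hspa5 levels was not tested.

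Correlations between the 10 genes over libraries are given as a description, since all points of a cell type share the same libraries and normalisation. In endothelial cells (10 libraries) the ATF4 targets Trib3 and Chac1 had r = 0.84, Chac1 and Herpud1 had r = 0.83, and Trib3 and Herpud1 had r = 0.67. These genes all hold CARE letters in their promoters, as did 3.95% of all promoters. Xbp1, which matched none of the elements, had r = 0.83 with Herpud1, 0.72 with Chac1 and 0.67 with Trib3. The part of the elements in these correlations was not tested. Hsp90b1 and Ddit3 had the lowest value, -0.71. In microglia (11 libraries) Hspa5 went with Hsp90b1 (0.76) and Herpud1 (0.69), and Pdia4 with Ddit3 (0.67). Trib3 and Chac1 had 0.56 there, Trib3 and Herpud1 0, Chac1 and Herpud1 -0.14, and Xbp1 and Trib3 had the lowest value, -0.70. Of 45 pairs, 33 were above 0 in endothelial cells and 29 in microglia. The share over pairs of all tested genes was not computed, so these counts do not show that the 10 go together.

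**Figure D4:**
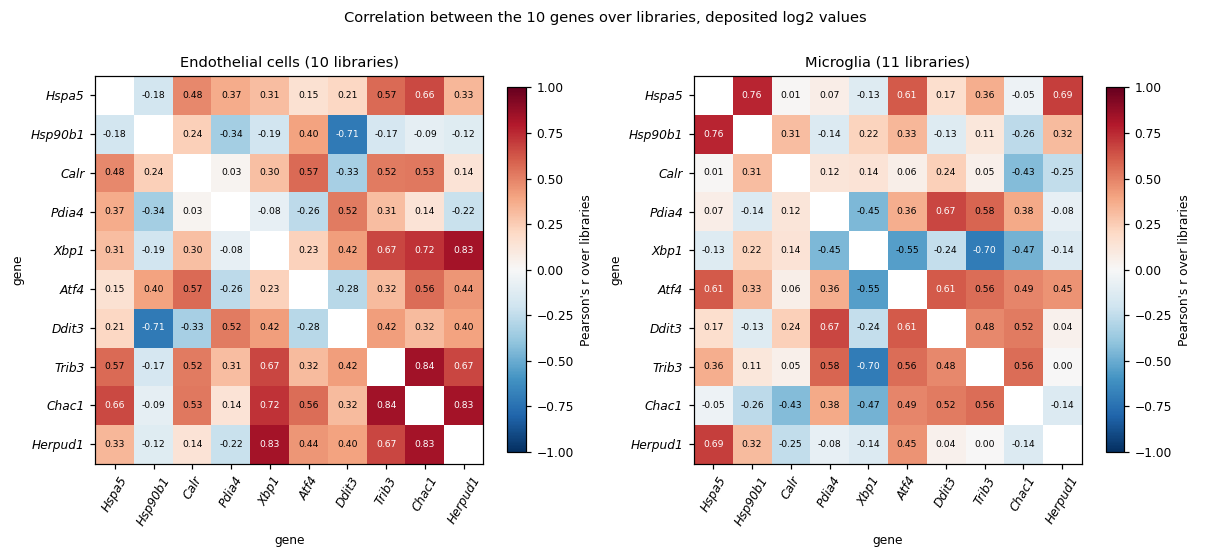
Pearson's r of the deposited log2 values between each pair of the 10 genes over 10 endothelial libraries (left) and 11 microglia libraries (right), with colour from -1 to 1. Trib3, Chac1, Herpud1 and Xbp1 form the reddest block in endothelial cells (0.67 to 0.84), while in microglia Xbp1 against Trib3 is at -0.70.

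Among all tested genes, those with the pattern most like Ddit3 in endothelial cells were Eif2ak4, the gene of the eIF2alpha kinase GCN2 (r = 0.96), Rab5a (0.96), Mrpl42 (0.96), Sidt2 (0.94) and Maoa (0.94), over 10 libraries. Those most like Hspa5 were Bdkrb2 (0.91), Timp3 (0.86), Enc1 (0.86), Cx3cl1 (0.83) and Mapk6 (0.82). In microglia, over 11 libraries, Dffb (0.91), Efnb2 (0.89), Rdh16 (0.89), Ascc2 (0.89) and Tia1 (0.87) were most like Hspa5, and Itgb7 (0.89), Per1 (0.89), Ramac (0.88), Stard5 (0.88) and Atp6v0d2 (0.87) most like Ddit3. These are the top of 10351 and 9736 genes.

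Other genes of the pathway were read from the same fit in 5 lists, and 0 of them passed in any contrast in either cell type. Of the 6 ER stress sensors and their processing proteases, 6 were tested in endothelial cells, with a median WT minus PBS difference of -0.04, beside -0.01 for all genes tested. Their extremes were Mbtps2, the site-2 protease that cuts ATF6 (0.06, SE 0.0934, limma adjusted p = 0.888), and Atf6 itself (-0.39, SE 0.196, limma adjusted p = 0.546), which became 0.04 without WT A. All 13 ER folding genes were tested (median 0.07), from Ero1a, an oxidase that drives disulfide formation (0.29, SE 0.204, limma adjusted p = 0.678), to Hyou1, a large ER chaperone (-0.35, SE 0.121, limma adjusted p = 0.423). Of 8 degradation genes 7 were tested (median 0.02), from Syvn1, the ubiquitin ligase HRD1 (0.23, SE 0.0946, limma adjusted p = 0.478), to its partner Sel1l (-0.19, SE 0.168, limma adjusted p = 0.743).

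The list of eIF2alpha, its kinases and its phosphatase subunits held the named gene of smallest p for endothelial WT minus PBS. Its 6 members had a median of -0.12, from Eif2ak2, the double-stranded RNA sensor PKR (0.24, SE 0.107, limma adjusted p = 0.51, and 0.04 without WT B), to Eif2ak4 (-0.42, SE 0.109, unadjusted p = 0.00236, limma adjusted p = 0.285). Eif2ak4 stood at 2784, 1704 and 2058 with PBS, 184.5 and 401.3 with WT, 3612, 1525 and 1690 with KO1, and 1401 and 2697 with KO2. Both WT libraries lay below the other 8, and on log2 of counts plus 50 the difference was -2.75 (limma adjusted p = 0.172). Hyou1 had the same order, at 700 and 1833 with WT and 1944 to 4874 in the other 8. Both were named as extremes of their lists, and WT below the other 8 libraries was a pattern of 3.48% of genes. Of 26 ATF4 and CHOP targets 24 were tested (median -0.04), from Cebpb, a C/EBP transcription factor (0.48, SE 0.159, limma adjusted p = 0.411), to Gdf15, a secreted stress cytokine (-0.81, SE 0.282, limma adjusted p = 0.423). Gdf15 stood at 48474, 13897 and 39871 with PBS and 16613 and 7707 with WT, so PBS B lay below WT A. On log2 of counts plus 50, WT minus PBS was -1.40 for Gdf15, -1.58 for Hyou1 and -2.94 for Atf6. On that scale it was 1.67 for Eif2ak2, 1.15 for Syvn1 and 1.08 for Cebpb.

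**Figure D5:**
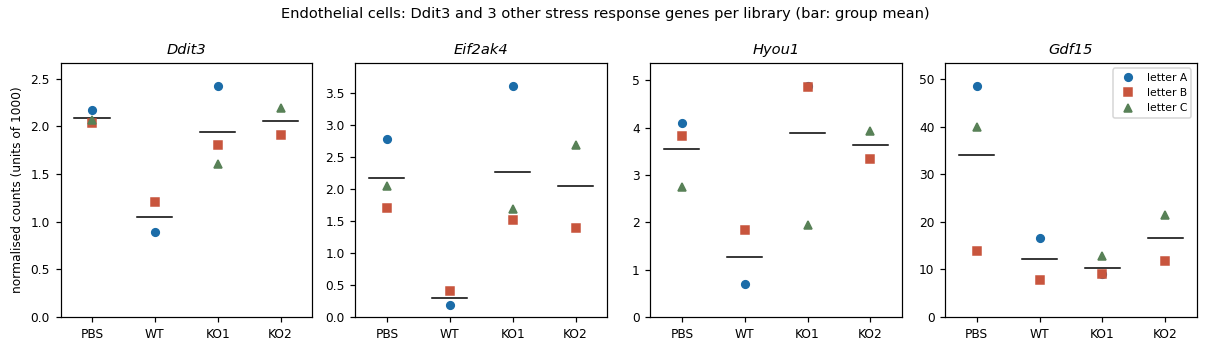
Recovered normalised counts (in units of 1000, linear axis from 0) of Ddit3, Eif2ak4, Hyou1 and Gdf15 in the 10 endothelial libraries, by group, with group means as bars and letters as markers (KO1 A and B coincide for Hyou1 and nearly for Gdf15). WT lies lowest for Ddit3, Eif2ak4 and Hyou1, while Gdf15 is high in PBS A and PBS C.

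For knock-out minus WT in endothelial cells the list medians were 0.09 for the sensors, 0.01 for folding, -0.02 for degradation, 0.03 for the eIF2alpha list and 0.02 for the targets, beside 0.01 for all genes. Eif2ak4 had the highest difference of the eIF2alpha list (0.41, SE 0.101, unadjusted p = 0.0016, limma adjusted p = 0.301) and Ppp1r15a, the stress-induced eIF2alpha phosphatase subunit GADD34, the lowest (-0.15, SE 0.141). Folding genes ran from Hyou1 (0.37, SE 0.111, limma adjusted p = 0.387) to Ero1b (-0.17, SE 0.0908). The sensors ran from Atf6 (0.24, SE 0.181, and -0.18 without WT A) to Mbtps2 (-0.04, SE 0.0861). Degradation genes ran from Sel1l (0.13, SE 0.155) to Syvn1 (-0.22, SE 0.0872), and targets from the tRNA synthetase gene Eprs1 (0.18, SE 0.126) to Cebpb (-0.25, SE 0.147). Apart from Eif2ak4 and Hyou1, the limma adjusted p-values of these genes were 0.498 or more.

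In microglia the list medians for WT minus PBS were -0.09 for the sensors, -0.02 for folding, -0.04 for degradation, 0.02 for the eIF2alpha list and -0.01 for the 22 targets tested, beside -0.002 for all genes. The extremes were Atf6 (0.17) and Ern1, the gene of IRE1 (-0.28), Creld2 (0.22) and Hyou1 (-0.49, SE 0.229), Syvn1 (0.20) and Edem2 (-0.12), Eif2ak1 (0.23) and Ppp1r15a (-0.03), and Phgdh (0.25) and Wars1 (-0.43), with limma adjusted p-values from 0.941 to 1. For knock-out minus PBS the sensors ran from Atf6b (0.07) to Ern1 (-0.42, SE 0.127, unadjusted p = 0.00657, limma adjusted p = 0.858). Ern1 stood at 1312 and 1867 with PBS and 427 to 864 in the 6 knock-out libraries, without overlap, a pattern of 3.8% of genes. With WT it stood at 552, 1421 and 940 (A, B, C), so WT overlapped both PBS and the knock-out libraries. Folding genes ran from Sdf2l1 (0.15) to Hyou1 (-0.54, SE 0.205, limma adjusted p = 0.922), degradation genes from Derl1 (0.05) to Sel1l (-0.15), the eIF2alpha list from Eif2s1, the gene of eIF2alpha itself (0.18), to Eif2ak4 (-0.37), and targets from Shmt2 (0.18) to Wars1 (-0.38).

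None of the 10 genes is in the authors' deposited tables, named for a likelihood ratio test, which list 362 genes in endothelial cells and 238 in microglia. From the 5 other lists, the authors' deposited table holds Gdf15 (adjusted p = 0.001315), Pdia6 (0.0115) and Eif2ak4 (0.03664) for endothelial cells. For microglia the authors' deposited table holds Hyou1 (adjusted p = 0.02746), Phgdh (0.03029), Gdf15 (0.03833) and Psat1 (0.04004). The limma fits above are another model on other values, so these p-values are not to be set against theirs.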

How the data were processed

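Libraries were described by their labels as sorted brain cells. The build GRCm38.p6 and the tools Salmon 0.10.0, Trimmomatic 0.38, DESeq2 1.18.1 and FastQC 0.11.7 are named, without their roles, per the submitters' processing notes. The authors deposited, for each cell type, log2 values of 20555 genes, called variance-stabilised counts in the labels, and a table of their own likelihood ratio test. The latter holds a mean normalised count deposited as a signal, a log2 fold change, 2 deposited scores (the standard error and the statistic), and deposited p-values with their adjusted form.

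A gene without reads sits at a floor in the deposited log2 values (13.2814 in endothelial cells, 9.8893 in microglia). Normalised counts were recovered by inverting the transform. In endothelial cells the closed inverse matched the authors' means of 362 genes (ratio 1.0). In microglia the closed inverse gave ratios of 0.6146 to 1.383 to the authors' 238 means. A spline with 16 knots through these means, anchored from 54.3 to 399243, was therefore added. Its largest held-out error was 0.427% over 10 parts. The lowest and highest means were never held out, so this error does not cover the ends of the range. Symbols were matched for 20537 of 20555 identifiers.

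The 4 contrasts and the F test were fitted by limma 3.58.1 (R 4.3.3) to the deposited values, using a mean-variance trend and every library of the cell type, for genes with a mean of at least 50 normalised counts, with Benjamini-Hochberg adjustment at 0.05. The design had assumed 3 libraries a group, and 2 to 3 were present. Alternatives were another filter, none, log2 of counts plus 50 or 10, median centring, only the groups compared, a replicate block, no trend and leaving out each library, with the letter C libraries left out added after seeing the data. The fit was tested on simulated data with independent noise and no letter effect. The simulated shifts were larger than any difference of the 10 genes. That test therefore does not show whether differences of the size reported could be found. All 10 genes are named. From each other list the genes of largest and smallest difference are named, and for Hspa5 and Ddit3 the 5 genes of highest correlation. The members and lists were chosen with earlier results of these data known.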

Additional observations from a re-analysis of the deposited data

How the results depend on the processing

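With limma, 0 of the 10 genes passed in each contrast and each cell type under all alternatives run, leaving out each library included. The 65 gene differences named were recomputed under 21 settings or fewer, giving 1249 values, of which 1223 kept their direction and 26 turned. Counts of all genes called moved with the settings. For endothelial WT minus PBS (1), they were 0 with the filter at 1 above the floor, with only the groups compared and without the letter C libraries, 9 without a filter, 2 on log2 of counts plus 50 and 3 with plus 10, and 0 to 4 when a library was left out (4 without KO1 C). For knock-out minus WT (1) the first 3 of these settings also gave 0, no filter gave 6, plus 50 gave 2, plus 10 gave 10, and left-out libraries 0 to 2 (2 without KO2 C). Without a filter they were 17 for knock-out minus PBS, 3 for KO1 minus KO2 and 15 for the F test, which gave 2 with plus 50 and 2 with plus 10. The filter at 1 above the floor gave 1 for KO1 minus KO2, and leaving out the C libraries 1 for knock-out minus PBS. In microglia (0 in each), no filter gave 1 for all but knock-out minus WT, plus 50 gave 2 for knock-out minus PBS, and no trend gave 1 for WT minus PBS, knock-out minus PBS and KO1 minus KO2. Median centring left each count as it was. Leaving out a microglia library gave 0 to 1 for WT minus PBS (1 without KO2 B) and for knock-out minus PBS (1 without PBS A or KO2 C).

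Same-lettered libraries had correlated deviations above 0.1 in 7 of 12 endothelial and 7 of 15 microglia pairs. The main fit was designed without a letter term, with the letter block as an alternative, and these correlations do not justify leaving the letter out. All same-letter pairs lay above 0 (0.022 to 0.23 endothelial, 0.008 to 0.375 microglia), a hint from the data and not from the labels. Other pairs had medians of -0.049 and -0.0515. Deviations sum to 0 within a group, so these lower values follow in part from the same-letter ones and add no separate evidence. With the letter as a replicate block, endothelial counts of genes called were 0 for WT minus PBS, 0 for knock-out minus WT and 1 for KO1 minus KO2, and microglia counts were 25 (WT minus PBS), 16 (knock-out minus PBS) and 8 (F test), with 0 of the 10 genes in each. Under the replicate block Sel1l turned to -0.004 (endothelial knock-out minus WT) and Phgdh to -0.047 (microglia WT minus PBS).

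Left-out libraries turned these differences, given as their range. In endothelial WT minus PBS they were Mbtps2 (-0.05 to 0.159) and Atf6 (-0.806 to 0.036), in knock-out minus WT Atf6 (-0.182 to 0.66) and Mbtps2 (-0.143 to 0.066, and 0.015 without KO2 C), and in KO1 minus KO2 Atf4 (-0.077 to 0.123). In microglia WT minus PBS they were Phgdh (-0.014 to 0.453), Atf6 (-0.001 to 0.332), Ppp1r15a (-0.326 to 0.266, and 0.075 without WT A), Hspa5 (-0.605 to 0.234), Trib3 (-0.59 to 0.025) and Chac1 (-0.041 to 0.242). For knock-out minus WT it was Trib3 (-0.189 to 0.426), and for knock-out minus PBS Sdf2l1 (-0.032 to 0.323), Derl1 (-0.063 to 0.159), Sel1l (-0.314 to 0.023), Hspa5 (-0.64 to 0.199) and Chac1 (-0.063 to 0.22). Without the C libraries Mbtps2 became 0.031 (knock-out minus WT), Atf4 -0.066, Phgdh -0.014 and Chac1 -0.002. Another 32 of the 65 differences kept their direction but moved by over 1.5 times when a library was left out, and 16 did neither. The cause of these changes was not tested. With 2 or 3 libraries a group, the interval of each difference sets what could be seen.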
